A study of Homo sapiens with 6 samples.

Results

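The transcripts of 9 genes of MHC class I antigen presentation were followed in the human myeloma cell line KMS27, an established line of malignant plasma cells. The genes are HLA-B, HLA-C, HLA-E, HLA-F, B2M, TAP1, TAP2, TAPBP and NLRC5, chosen by name from the 56638 gene symbols of the deposited tables, of which 21011 were abundant enough to test. Together they hold 417 of 215170 listed transcripts. The study compared 3 libraries of KMS27 cells with HA-TAZ overexpression with 3 libraries labelled wild type, and it asked how the transcriptome changes with HA-TAZ. HA is an epitope tag. TAZ, the product of WWTR1, is a transcriptional coactivator at the end of the Hippo pathway. All 6 libraries come from the same line without selection of cells, and the sources used here give neither the promoter that drives HA-TAZ nor whether it was 1 clone. Sample titles in the wild type group also contain the letters HA, and whether those cells received a construct is not stated. The 3 columns that do not name TAZ were assigned to wild type by elimination. Letters (control a, b and c) name them here, because none could be tied to a single sample.

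MHC class I molecules display peptides from inside the cell to CD8 T cells. A heavy chain (HLA-B and HLA-C among the classical ones, HLA-E and HLA-F among the nonclassical ones) pairs with the invariant light chain B2M. The proteasome makes the peptides, the transporter of TAP1 and TAP2 pumps them into the endoplasmic reticulum, and tapasin, the product of TAPBP, holds an empty class I molecule at the transporter until a peptide is bound. NLRC5 is a transactivator of class I genes. It does not bind DNA itself and acts through factors on the X and Y boxes of the promoters. IRF and NF-kB factors act on neighbouring elements, and interferons and inflammatory cytokines are the best known inducers of the pathway. Class I molecules on myeloma cells are the ligands through which T cells recognise them and through which NK cells are held back.

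Promoter sequences show these elements, and they are given for the genes with the largest changes (HLA-F, TAP1 and HLA-B) and for B2M and TAPBP, which had smaller ones. The RefSeq promoter table (GRCh38.p14) held 7 of the 9 genes. Each sequence is the 250 bases before the annotated start, 5' to 3' on the strand of the gene. HLA-F lies at chr6:29723184-29723433 on the plus strand, TAP1 at chr6:32853705-32853954 on the minus strand, HLA-B at chr6:31357180-31357429 on the minus strand, B2M at chr15:44711267-44711516 on the plus strand and TAPBP at chr6:33314079-33314328 on the minus strand. TAP1 has 2 listed starts and the one farther upstream was used. Capitals mark the core of IRF sites (AANNGAAA on either strand), the NF-kB motif, and TGACG followed after 18 to 26 bases by ATTGG, which are parts of the X2 and Y boxes.
HLA-F: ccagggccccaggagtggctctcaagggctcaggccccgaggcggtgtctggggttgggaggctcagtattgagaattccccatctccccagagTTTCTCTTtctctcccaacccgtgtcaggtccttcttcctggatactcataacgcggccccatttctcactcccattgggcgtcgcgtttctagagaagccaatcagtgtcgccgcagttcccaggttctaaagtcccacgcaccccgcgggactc
TAP1: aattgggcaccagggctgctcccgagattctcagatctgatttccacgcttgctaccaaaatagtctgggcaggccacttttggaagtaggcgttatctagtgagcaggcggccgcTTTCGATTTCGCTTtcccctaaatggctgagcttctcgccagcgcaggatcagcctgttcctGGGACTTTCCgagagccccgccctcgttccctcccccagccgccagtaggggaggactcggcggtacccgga
HLA-B: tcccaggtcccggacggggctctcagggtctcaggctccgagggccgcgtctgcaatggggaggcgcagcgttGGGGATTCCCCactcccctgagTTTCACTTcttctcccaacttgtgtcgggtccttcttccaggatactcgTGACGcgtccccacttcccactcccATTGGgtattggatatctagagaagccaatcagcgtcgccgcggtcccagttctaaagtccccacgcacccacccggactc
B2M: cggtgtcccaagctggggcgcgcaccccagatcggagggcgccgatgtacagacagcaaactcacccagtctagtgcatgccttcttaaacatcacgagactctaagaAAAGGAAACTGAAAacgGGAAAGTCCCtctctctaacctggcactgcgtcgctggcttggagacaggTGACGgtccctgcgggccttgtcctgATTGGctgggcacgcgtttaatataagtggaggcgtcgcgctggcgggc
TAPBP: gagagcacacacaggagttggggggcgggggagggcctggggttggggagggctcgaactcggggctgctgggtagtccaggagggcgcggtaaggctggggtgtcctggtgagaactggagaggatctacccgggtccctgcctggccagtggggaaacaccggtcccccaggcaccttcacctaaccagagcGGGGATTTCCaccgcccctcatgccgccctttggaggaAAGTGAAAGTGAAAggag
The IRF core was found in 7 of 7 promoters, against 20.3% of 34788 RefSeq promoter windows of the same length. Of the 7, 5 held the longer interferon-stimulated response element, which overlaps the core (3.02% of all windows), all but HLA-B and HLA-C. The NF-kB motif was found in 5 (9.95% of all windows), all but HLA-F and TAP2. The spaced pair of TGACG and ATTGG was found in HLA-B, HLA-C and B2M (0.313% of all windows), and its spacing was set after these sequences were seen. The site GGAATG, which TEAD factors, the DNA-binding partners of TAZ, recognise, was in 0 of 7 windows (11.9% of all windows). Such matches describe letters in a window and not bound sites.

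WWTR1, which checks the labels, was at 293 to 306 TPM with HA-TAZ and 1.69 to 2.69 TPM in controls. TPM is an abundance per transcript length and scaled to the same total in each library. It is thus a share, which depends on the levels of all other transcripts. The read depth of each library was unknown. Because TPM is a share, each library was divided by a median-of-ratios factor over all symbols (0.847 to 0.958 in HA-TAZ, 1.08 to 1.23 in controls). The result is called scaled TPM. After scaling the median log2 fold change was 0.01 over all symbols tested, 0.10 over protein-coding symbols and 0.13 over the 7056 protein-coding symbols with a mean of at least 10 TPM. With TPM as deposited the median over all symbols was -0.27. All 9 plasma cell markers in the table were at 1 TPM or more, with a summed scaled TPM of 3123 to 3635 in HA-TAZ and 3925 to 3964 in control libraries. IGJ made up most of this sum and was not called (limma, adjusted p = 0.101), and the other 8 summed to 617 to 662 and 604 to 632, which overlap. Among them SLAMF7 was called higher and CD38 lower, and the part of these markers in the results below was not tested. Of 31 markers of T cells, NK cells, monocytes, stromal, epithelial and endothelial cells, 9 reached a mean of 1 TPM, their summed scaled TPM per cell type was 1.68 to 4.99 in HA-TAZ and 2.03 to 4.95 in control libraries, and S100A8 was listed at 0 in every library.

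All 9 class I genes rose in HA-TAZ libraries. Their log2 fold changes ranged from 0.44 to 1.15, with a median of 0.68, and each had an adjusted p-value under 0.05 (limma on log2(scaled TPM + 1), Benjamini-Hochberg over all 21011 symbols). Over all symbols 9.87% were called and 7.13% called higher, and over protein-coding symbols with at least 10 TPM 15.5% were called higher. A log2 fold change at or above that of the lowest member was found for 7.44% of the latter. The groups did not overlap in scaled TPM for any of the 9, where every HA-TAZ library was above every control for 23.1% of all symbols tested and 43.8% of those protein-coding ones. In TPM as deposited, 8 of the 9 were still above every control, against 4.21% and 6.21%. In that scale 4 of the 9 remained called higher (HLA-B, HLA-E, HLA-F and TAP1), where 1.26% of all symbols and 1.7% of the protein-coding ones were. With factors computed over protein-coding symbols alone, an alternative chosen after seeing the data, all 9 were called higher, against 3.63% of all symbols and 7.44% of the protein-coding ones. With factors from protein-coding symbols of at least 10 TPM, also chosen then, all 9 were called too, against 2.87% and 5.54%. In bulk RNA a change in the level per cell and a change in the share of cells that express a gene cannot be told apart.

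**Figure D1:**
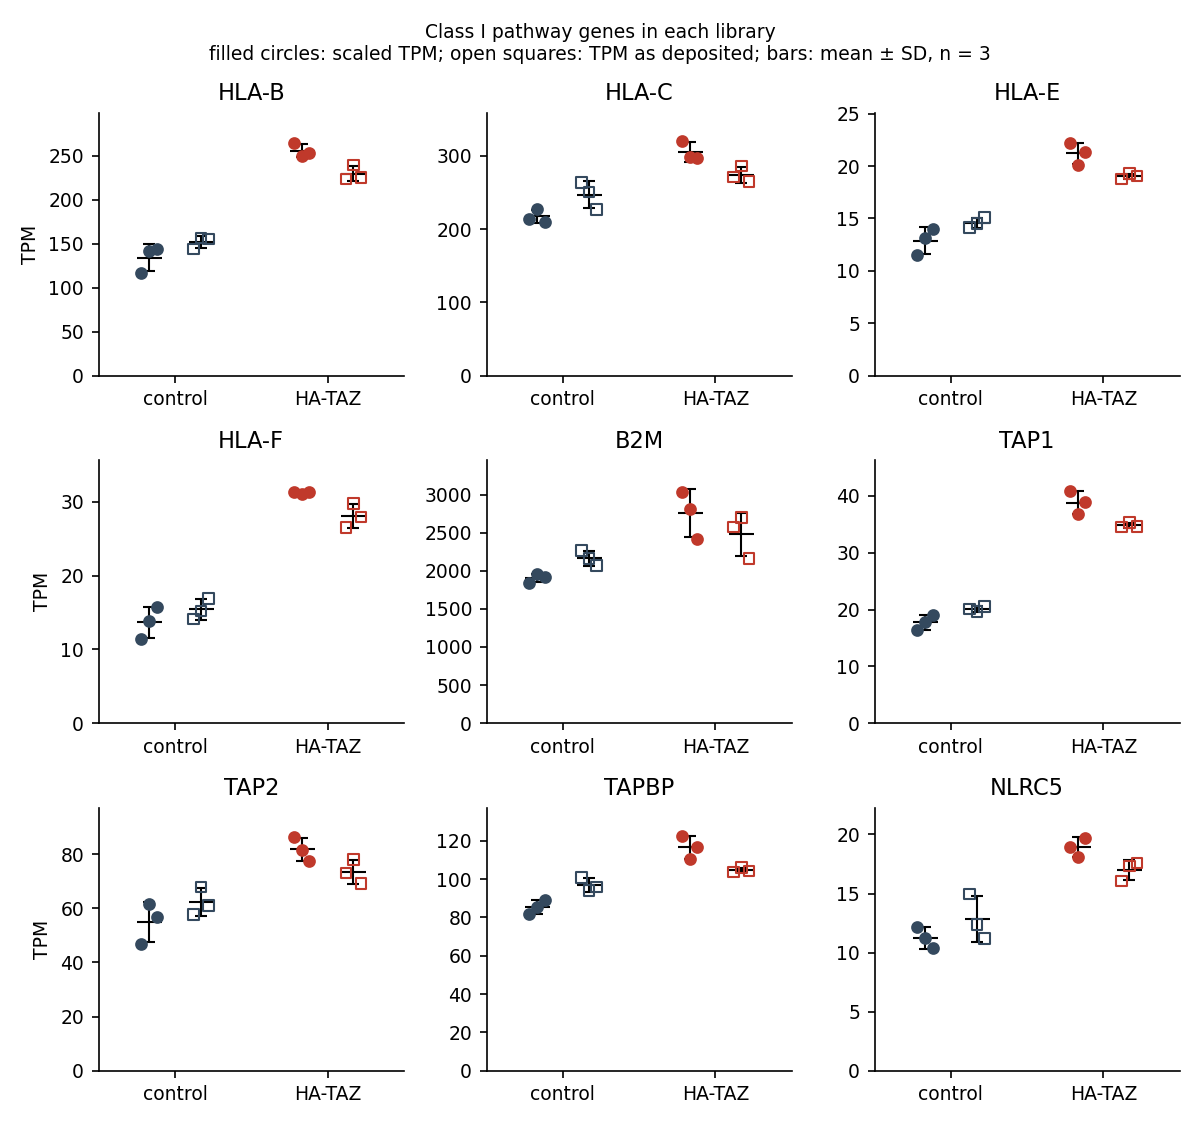
TPM of the 9 class I genes in each of 3 control and 3 HA-TAZ libraries, as scaled TPM (filled circles) and as deposited (open squares), with mean ± SD (n = 3) and axes from 0. Filled circles of HA-TAZ lie above those of controls in every panel, while the open squares of B2M overlap between the groups.

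**Figure D2:**
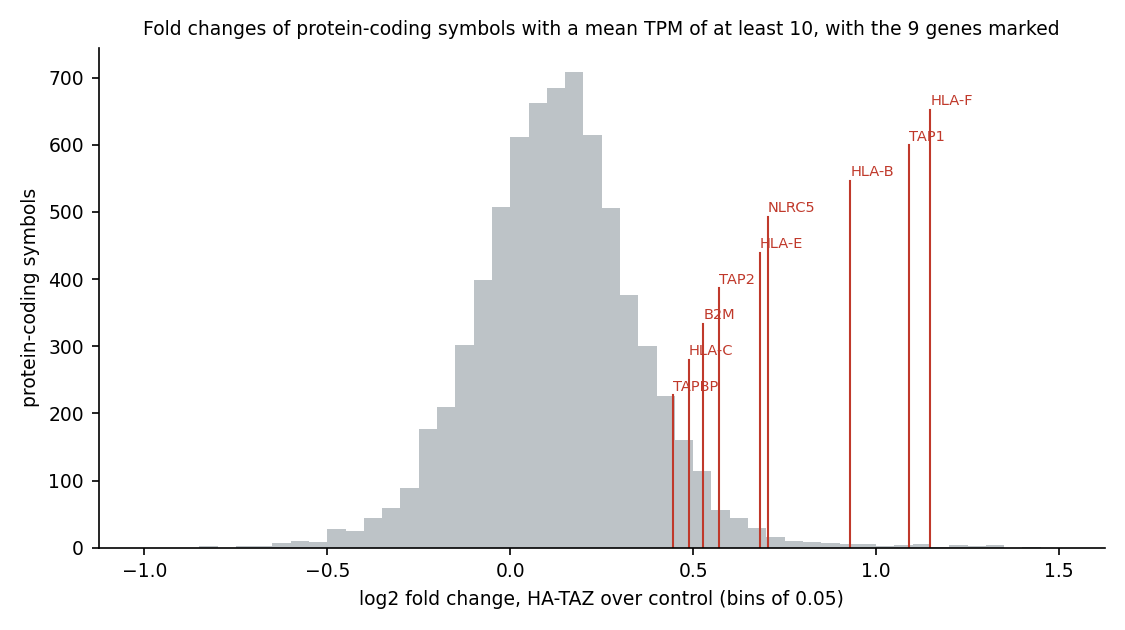
Number of protein-coding symbols with a mean of at least 10 TPM in bins of the log2 fold change of HA-TAZ over control, with the 9 class I genes as red lines whose height carries no value. The bulk of symbols lies around the median of 0.13, and HLA-B, TAP1 and HLA-F lie in the far right tail.

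Among the heavy chains, HLA-B and HLA-F rose most. HLA-B, a classical chain that presents peptides to CD8 T cells, was at 223, 239 and 225 TPM in HA-TAZ 1, 2 and 3 and at 144, 156 and 155 TPM in control a, b and c. Every HA-TAZ library was above every control. The scaled means were 255 ± 7.47 and 134 ± 15.0 (SD, n = 3 each), and the log2 fold change was 0.93 (SE 0.09, limma, adjusted p = 0.00804). HLA-F, a nonclassical chain of restricted surface expression, was at 26.5, 29.8 and 27.9 TPM with HA-TAZ and 14.1, 15.2 and 16.9 TPM in controls, again without overlap. Its log2 fold change was 1.15 (SE 0.11, limma, adjusted p = 0.00784), the largest of the 9 genes. It rests on few reads: no HLA-F transcript reached 100 mean estimated counts in the authors' deposited table.

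HLA-C, the other classical chain and the main ligand of inhibitory KIR receptors on NK cells, changed less. It was at 271, 286 and 265 TPM with HA-TAZ, against 263, 251 and 227 TPM in controls. The lowest HA-TAZ library and the highest control lay next to each other as deposited, and the groups stood apart after scaling (305 ± 13.1 and 217 ± 8.83, SD, n = 3 each). The log2 fold change was 0.49 (SE 0.06, limma, adjusted p = 0.0121), and the call was lost with TPM as deposited (0.15, limma, adjusted p = 0.164). HLA-E, which presents leader peptides of other class I chains to the NKG2A receptor of NK cells, was at 18.8, 19.3 and 19.0 TPM with HA-TAZ and 14.1, 14.5 and 15.1 TPM in controls. These values did not overlap, and the log2 fold change was 0.68 (SE 0.09, limma, adjusted p = 0.0150).

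The light chain B2M, the partner of class I heavy chains, was by far the most abundant of the 9. GENCODE release 29 types ENST00000561424.1 (48.5% of its TPM) and ENST00000349264.6 (13.5%) as nonsense-mediated decay and ENST00000559220.1 (33.6%) as a processed transcript. ENST00000558401.1 (1.57%) and ENST00000559916.1 (0.451%) are typed as protein-coding. The TPM of B2M is thus a sum over transcript types and not a level of coding mRNA. It was at 2573, 2696 and 2158 TPM with HA-TAZ, against 2267, 2157 and 2066 TPM in controls. HA-TAZ 3 lay within the range of the controls as deposited. After scaling the means were 2758 ± 313 and 1905 ± 56.7 (SD, n = 3 each) without overlap, and the log2 fold change was 0.53 (SE 0.11, limma, adjusted p = 0.0384). With TAP2, it lost its call under the most alternatives (9 of 16 for each). It was lost with TPM as deposited (0.19, limma, adjusted p = 0.201) and without any 1 of the 6 libraries (limma, adjusted p from 0.0548 to 0.119).

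Of the transporter pair, TAP1 rose more than TAP2. TAP1 was at 34.5, 35.3 and 34.7 TPM with HA-TAZ and 20.1, 19.6 and 20.6 TPM in controls, with little spread and no overlap in either group. Its log2 fold change was 1.09 (SE 0.07, limma, adjusted p = 0.00278), and it was called under each alternative run. TAP2 was at 73.0, 78.1 and 69.2 TPM with HA-TAZ and 57.7, 67.8 and 61.1 TPM in controls. HA-TAZ 3 and control b were close to each other as deposited. The log2 fold change of TAP2 was 0.57 (SE 0.11, limma, adjusted p = 0.0339), and the call was lost with TPM as deposited (limma, adjusted p = 0.0828). It was also lost in 5 of the 6 fits that left out a library, all but the fit without control a, with adjusted p-values from 0.0596 to 0.119 (limma).

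TAPBP, the tapasin gene, had the smallest change of the 9. It was at 104, 106 and 104 TPM with HA-TAZ and 101, 94.1 and 95.9 TPM in controls, a gap of a few TPM without overlap. After scaling the means were 117 ± 5.98 and 85.4 ± 3.47 (SD, n = 3 each), and the log2 fold change was 0.44 (SE 0.06, limma, adjusted p = 0.0171). With TPM as deposited it was 0.11 (limma, adjusted p = 0.165). NLRC5, a transactivator of class I genes, was at 16.1, 17.3 and 17.6 TPM with HA-TAZ and 15.0, 12.4 and 11.2 TPM in controls. Control a was the highest control and lay just under HA-TAZ 1. The log2 fold change was 0.70 (SE 0.08, limma, adjusted p = 0.0102), and 0.39 with TPM as deposited (limma, adjusted p = 0.0600).

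Leaving out 1 library also ended other calls. Of the 9 genes, 3 stayed called without HA-TAZ 1 (HLA-B, HLA-F and TAP1), 4 without HA-TAZ 2, 5 each without HA-TAZ 3 and without control b, 7 without control c and 8 without control a. Calls over all symbols fell as well, from 1499 of 21011 called higher with all 6 libraries. Without HA-TAZ 1, 2 and 3 they were 131 of 21320, 179 of 21155 and 270 of 21147. Without control a, b and c they were 378 of 20646, 233 of 20828 and 532 of 20829. HLA-B, HLA-F and TAP1 were called in all 6 of these fits. The adjusted p-values of HLA-B and HLA-F without HA-TAZ 1 were both 0.04997 (limma), just under the threshold. HLA-C was not called without HA-TAZ 1 or HA-TAZ 2, NLRC5 without HA-TAZ 1, and HLA-E and TAPBP without any 1 HA-TAZ library or without control b.

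**Figure D3:**
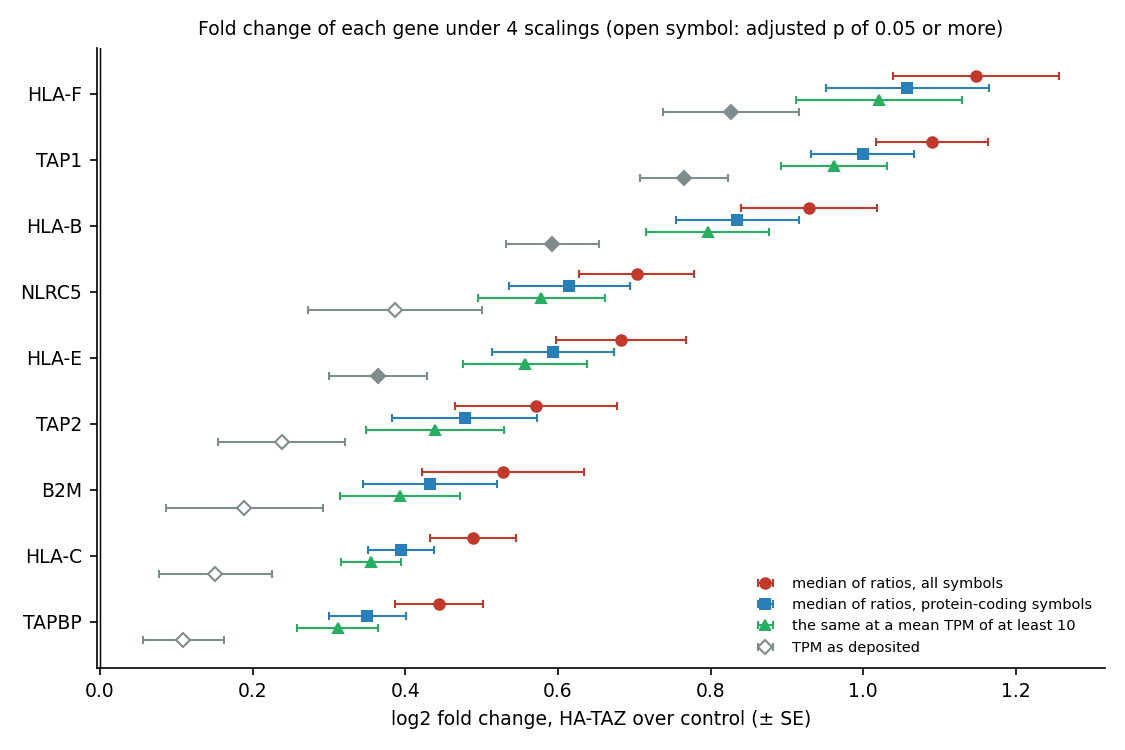
Log2 fold change (± SE) of HA-TAZ over control for each class I gene under 4 scalings of the libraries, with filled symbols for an adjusted p under 0.05 (limma). All values lie above 0, and 5 of the 9 genes turn to open symbols with TPM as deposited.

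In HA-TAZ libraries the 4 heavy chains together reached 550 ± 20.7 TPM, against 429 ± 12.7 TPM in controls (SD, n = 3 each). In TPM, which is per length, the order of means in both groups was B2M, HLA-C, HLA-B, TAPBP, TAP2 and TAP1, and then HLA-F, HLA-E and NLRC5. In controls the last 3 overlapped in range (HLA-F 14.1 to 16.9, HLA-E 14.1 to 15.1 and NLRC5 11.2 to 15.0 TPM). In HA-TAZ libraries no neighbours in this order overlapped. Scaled TPM varied between replicates by 0.415% (HLA-F) to 11.4% (B2M) of the mean in HA-TAZ and by 2.98% (B2M) to 15.5% (HLA-F) in controls.

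Ratios of 2 genes within a library do not depend on the scaling, and 4 of them were compared after the values above were seen. HLA-B over HLA-C was 0.824, 0.836 and 0.851 in HA-TAZ and 0.545, 0.624 and 0.684 in control libraries. TAP1 over TAP2 was 0.473, 0.452 and 0.501 in HA-TAZ and 0.348, 0.289 and 0.337 in controls. HLA-F over HLA-E was 1.41, 1.54 and 1.47 in HA-TAZ and 0.999, 1.05 and 1.12 in controls. Thus HLA-B gained on HLA-C, TAP1 on TAP2 and HLA-F on HLA-E, with no overlap of the groups. The 4 heavy chains came to 21.0, 21.3 and 24.9% of the TPM of B2M in HA-TAZ and to 19.2, 20.2 and 20.0% in controls, a small gap without overlap in which HA-TAZ 3 stood above the rest. Both sums hold transcripts of every annotated type. Each of the 4 ratios had an exact permutation p of 0.1 against a difference in either direction (also 0.1 after adjustment over the 4), the smallest value 3 against 3 libraries allow.

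**Figure D4:**
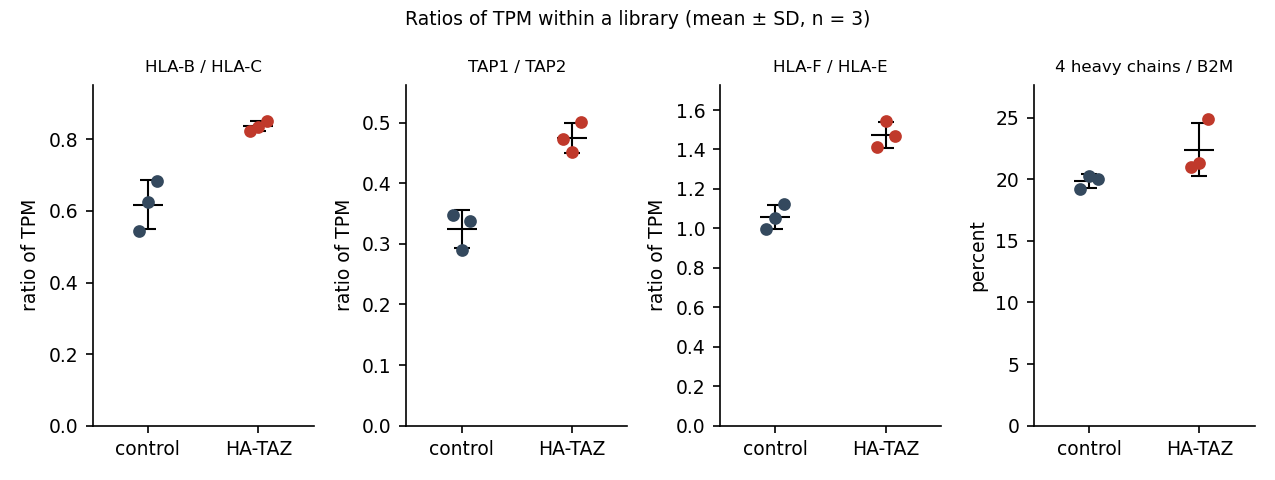
Ratios of TPM within each of 3 control and 3 HA-TAZ libraries for 3 gene pairs, and the summed TPM of HLA-B, HLA-C, HLA-E and HLA-F as a percent of that of B2M, with mean ± SD (n = 3). HA-TAZ libraries lie above the controls in all 4 panels, by the least for the heavy chains over B2M.

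The reference contains several copies of the MHC region of chromosome 6, and the TPM of 7 of the genes were split over 5 (TAPBP) to 9 (TAP2) gene IDs, which were summed here. These IDs are copies in the reference and not alleles of KMS27, and no allele was called. Of the TPM of HLA-B, ENSG00000223532 took 50.7% and ENSG00000234745 only 1.38%. For HLA-C, ENSG00000225691 took 45.0% and ENSG00000228299 44.6%. The 7 IDs of HLA-E fell into 3 with 22.5% each and 4 with 8.14% each. All 17 HLA-E transcripts above 0 shared their 6 values with another one, as did 22 of 25 for TAP1. B2M and NLRC5 had a single ID.

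The 2 main HLA-C copies differed in summed TPM. ENSG00000225691 was at 128 ± 2.29 TPM with HA-TAZ and 106 ± 0.115 TPM in controls, and ENSG00000228299 at 117 ± 8.22 and 115 ± 17.2 TPM (SD, n = 3 each). The transcripts of ENSG00000228299 went both ways. Its ENST00000479595.1 was at 93.9 ± 1.87 and 70.7 ± 4.05 TPM without overlap (limma, adjusted p = 0.0620). Its ENST00000468663.1 was at 16.7 ± 7.73 TPM with HA-TAZ and 39.7 ± 21.3 TPM in controls, with overlap. In HLA-B, ENSG00000223532 was at 119 ± 4.02 and 74.4 ± 4.05 TPM. The division of reads between such copies is uncertain, since the genes and copies share long stretches of sequence.

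Of the 417 transcripts of the 9 genes, 83 were abundant enough to test one by one. Of these, 6 were called higher and 0 lower (limma, Benjamini-Hochberg over 57448 transcripts), and 62 had an unadjusted p-value under 0.05. Over all transcripts 0.592% were called and 0.494% called higher, and 13976 of 57448 had an unadjusted p-value under 0.05 (limma). Transcripts that share their values with one on another copy were each counted. The called ones were ENST00000416726.1 (log2 fold change 0.85) and ENST00000450871.2 (0.88) of HLA-B, ENST00000457903.2 of HLA-C (0.69), ENST00000376844.4 (2.05) and ENST00000473718.1 (1.31) of HLA-F and ENST00000559916.1 of B2M (0.70). At a mean of at least 5 TPM 22 were called, all higher, and with TPM as deposited 0 were (42 at an unadjusted p-value under 0.05, limma). The share called over all transcripts at the 5 TPM filter is not given here. Over symbols, 2036 of 11863 were called higher at that filter, against 1499 of 21011 in the main fit. The count of called transcripts of the 9 genes was 0 to 3 when 1 library was left out. It was 0 without HA-TAZ 1, HA-TAZ 2, HA-TAZ 3 or control b. Without control a, 1 of the 2 called was lower, ENST00000544417.1 of B2M (limma, adjusted p = 0.0190). It was at 0 to 0.000804 TPM with HA-TAZ, at 0.000190 TPM in control a and at 5.94 and 4.70 TPM in control b and c.

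The authors' deposited table gave statistics for 189 of these transcripts. In that deposited table by the authors, a q-value under 0.05 was given for 43, all with a positive effect of HA-TAZ, where 4.08% of all transcripts with statistics did. They covered each of the 9 genes, with 12 in HLA-B, 7 each in B2M and TAP1 and 2 to 4 in each other gene. Transcripts on different reference copies that share the same values were each counted, so neither 43 nor 189 counts independent measurements. Such repeats in the authors' deposited table include TAP1 transcripts at a natural log effect of 0.935, HLA-E ones at 0.557 and TAPBP ones at 1.13. Of all 189 effects in the authors' deposited table, 169 were above 0 and 20 below. The share above 0 over all transcripts with statistics is not given here. The transcript with the most estimated counts in the authors' deposited table was ENST00000425848.2 for HLA-B, whose natural log effect was 0.752 (SE 0.153). In the authors' deposited table that of HLA-C, ENST00000479595.1, had 0.509 (SE 0.0802). That of B2M, ENST00000561424.1, had 0.389 (SE 0.0610) in the authors' deposited table. That of TAPBP, ENST00000383198.2, had 0.171 in the authors' deposited table, with a q-value of 0.0656 that missed the threshold. For HLA-F, which rose most as a gene, the most counted transcript, ENST00000422439.1, had -0.161 (SE 0.254) in the authors' deposited table, with a q-value of 0.835 and 97.9 mean estimated counts. Those of HLA-E (0.557), TAP1 (0.530), TAP2 (0.293) and NLRC5 (0.413) had positive effects with q-values under 0.05 in the authors' deposited table. ENST00000473718.1 of HLA-F, called above, had 1.02 (SE 0.495) in the authors' deposited table, with a q-value of 0.270 and 65.2 mean estimated counts. For ENST00000376844.4, also called above, the authors' deposited table gave 4.69 (SE 1.38), with a q-value of 0.0176 and 20.5 mean estimated counts.

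The other steps of the pathway were described with lists of genes around the 9. Their counts stand beside the 15.5% of protein-coding symbols with at least 10 TPM that were called higher (1.7% with TPM as deposited) and the median log2 fold change of 0.13 over those symbols. In the list of proteasome subunits, activators and assembly factor, 9 of 10 were called higher and 0 lower, with a median log2 fold change of 0.44. Interferon induces PSMB8, PSMB9, PSMB10, PSME1 and PSME2. PSMB8 (log2 fold change 0.86), PSME2 (0.77) and PSMB9 (0.69) had larger values than the constitutive subunits PSMB5 (0.46), PSMB6 (0.46) and PSMB7 (0.36), a difference between genes that was not tested. The activator subunits PSME1 (0.39) and PSME3 (0.40) were called as well. PSMB8, PSMB9 and PSME2 were also called with TPM as deposited, and the other 6 were not (limma). PSME1 and PSMB10, which had a log2 fold change of 0.38, lay below PSMB5 and PSMB6, and PSMB10 was not called (limma, adjusted p = 0.0670).

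Among 13 transcription factors of class I promoters, 4 were called higher and 0 lower, with a median log2 fold change of 0.13, the same as over those protein-coding symbols. IRF1, which binds the interferon-stimulated response element, was at 42.8 to 43.3 TPM with HA-TAZ and 24.8 to 26.7 TPM in controls, far apart in both groups. Its log2 fold change was 1.06 (SE 0.06, limma, adjusted p = 0.00167). CIITA, the paralogue of NLRC5 for class II genes, rose by 0.86 on the log2 scale. RFX5 (0.36) and NFYA (0.37), which bind the X and Y boxes, rose less, and their calls were lost with TPM as deposited (limma, adjusted p = 0.706 and 0.591). The other 9 were not called, among them the RFX5 partners RFXAP (-0.11) and RFXANK (0.68) and the NF-kB subunits RELA (0.13) and NFKB1 (0.25).

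Chaperones and peptidases serve the loading step. Of CALR, CANX, PDIA3, BCAP31, ERAP1, ERAP2 and TAPBPL, 0 of 7 were called (limma), with a median log2 fold change of 0.08 and a range of -0.16 (ERAP1) to 0.29 (BCAP31). Unadjusted p-values (limma) were under 0.05 for 3 of them, against 3252 of the 7056 protein-coding symbols with at least 10 TPM. CALR, CANX and PDIA3 serve all glycoproteins of the endoplasmic reticulum and not class I molecules alone.

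Class I-like molecules did not move as a block. Of 18 genes, 6 were abundant enough to test, and AZGP1, a secreted class I-like protein that does not need B2M, fell by 0.82 on the log2 scale, from 8.23 ± 0.417 to 4.22 ± 0.215 scaled TPM (SD, n = 3 each, limma, adjusted p = 0.00783). MICB, a stress-induced ligand of NKG2D on NK and T cells, was called higher (0.28), but its fold change turned to -0.04 with TPM as deposited. Its call was also lost with the upper-quartile and both protein-coding factors, without a filter, without trend and without any 1 library (limma, adjusted p from 0.0630 to 0.134). MICA (0.12), MR1 (0.16), ULBP1 (-0.19) and ULBP3 (-0.13) were not called. Of 12 class I pseudogenes, 11 were in the table and 4 were tested. HLA-H rose by 0.76 on the log2 scale, and its sequence resembles that of the coding heavy chains.

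Of 13 interferons and receptor chains, 6 were tested, all receptor chains, and IFNGR2, a chain of the receptor for interferon gamma, was called higher (0.57). Its call was lost with TPM as deposited (limma, adjusted p = 0.146). The interferon genes of this list, which holds no interferon alpha gene, were near 0. IFNB1 was at 0.559, 0.510 and 0.445 TPM with HA-TAZ and 0.0906, 0.0215 and 0.0325 TPM in controls. IFNL1 was at 0.699 ± 0.0506 and 0.116 ± 0.0523 TPM (SD, n = 3 each). Neither overlapped between the groups (exact permutation p = 0.1 for each), and both were below the filter of 1 TPM and so outside the test over all symbols. IFNG was listed at 0 in 5 libraries and at 0.0135 TPM in control b.

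**Figure D5:**
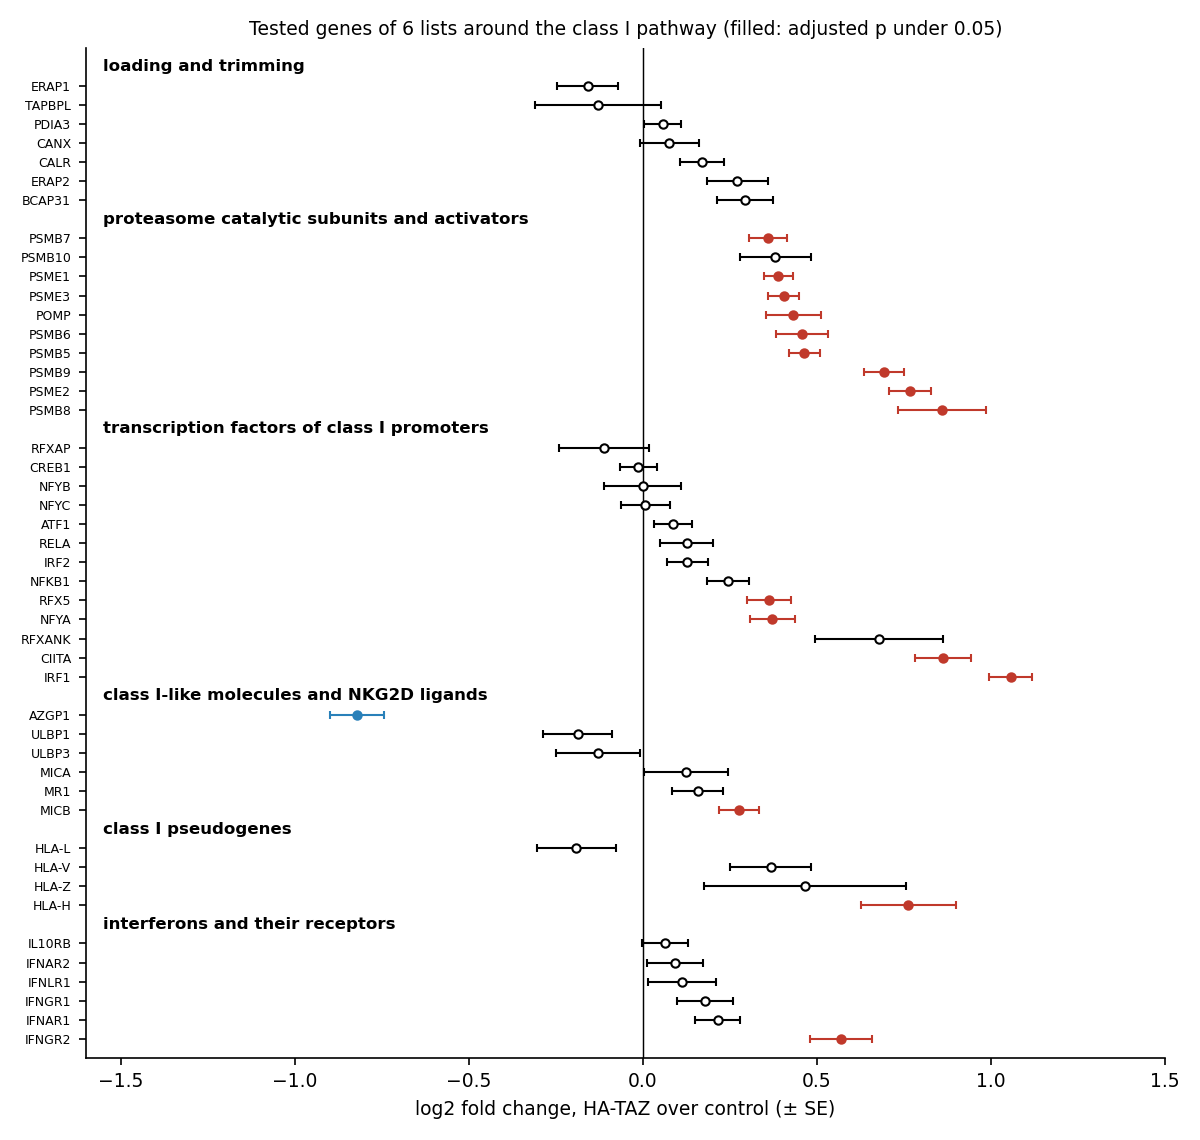
Log2 fold change (± SE) of HA-TAZ over control for the 46 tested genes of 6 lists around the class I pathway, filled where the adjusted p was under 0.05 (limma), red for higher and blue for lower. Proteasome genes lie to the right of 0 throughout, loading chaperones lie around 0 and AZGP1 is the single blue point.

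The 5 genes outside the 9 whose profile over the 6 libraries was closest to the median profile of the 9 were GAPDH, IFI30, SLC39A1, PSME2 and TMSB10. Closeness was the Euclidean distance of centred log2(scaled TPM + 1), 0.0596 to 0.0822 for these 5 among 8676 symbols with at least 10 TPM. IFI30 encodes a lysosomal thiol reductase of antigen processing and was at 75.5 ± 2.02 and 58.6 ± 1.79 TPM (SD, n = 3 each) in HA-TAZ and control libraries. GAPDH, a glycolytic enzyme often used as a reference gene, was at 916 ± 31.0 and 712 ± 6.53 TPM. Both had a log2 fold change near that of the median member (IFI30 0.69, GAPDH 0.70). This follows from the choice, since the profile includes the difference between the groups.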

How the data were processed

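The 9 genes and the lists around them were chosen with earlier results of these data known. Total RNA was depleted of ribosomal RNA and sequenced from both ends, per the labels' protocols. The submitters' processing notes name kallisto 0.46.0, sleuth 0.30.0 and GRCh37, and the annotation is not given in the sources used here. The authors deposited TPM per transcript, and a sleuth table whose p-values and q-values (adjusted p-values), natural log effects with their standard errors and mean natural log of estimated counts are the authors' own, per the file headers. Mean estimated counts below are the exponential of that mean.

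TPM was summed over all gene IDs of a symbol. Symbols with a mean of at least 1 TPM were tested with limma (trend, both directions) on log2(scaled TPM + 1), a scale that understates changes of low genes, adjusted by Benjamini-Hochberg, at a threshold of 0.05. Transcripts were tested alike with the same factors. Gene types came from GENCODE release 29. Named genes were WWTR1, the 9 genes, called genes of each list (up to 6 by adjusted p), the 5 nearest profiles, and transcripts called or holding at least 10% of a gene's TPM; other names were added after their values were seen. A gene of the transcription factor list is not reported here and was left out of its counts. Nothing in the labels says that replicates were separate cultures, so p-values measure the spread between these libraries. Tables were joined in Python 3.11.15 with pandas 2.3.3 and numpy 2.4.6, figures drawn with matplotlib 3.10.9, and models fitted in limma 3.58.1 under R 4.3.3.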

Additional observations from a re-analysis of the deposited data

How the results depend on the processing

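All 9 genes stayed higher in HA-TAZ libraries under each alternative that gave a value, and HLA-F gave none with only the transcripts of at least 100 mean estimated counts. The 9 called genes became 4 with TPM as deposited and 3 to 8 when 1 library was left out. B2M and TAP2 also lost their calls without a filter on level (limma, adjusted p = 0.0830 and 0.0652) and in limma without trend (0.0508 and 0.0536), and TAP2 with gene IDs kept apart (0.0928). Over all symbols, 2074 calls (72.3% higher) became 3693 with TPM as deposited (7.18% higher), 778 without a filter, 831 without trend, 4888 with transcripts of at least 100 counts, and 165 to 683 when 1 library was left out. The share of higher calls was 54.2% with upper-quartile factors, 46.7% with protein-coding factors and 35.1% with those at 10 TPM. The 17 called list genes became 10 with TPM as deposited, 11 without trend, 27 with transcripts of at least 100 counts and 6 to 10 when 1 library was left out. MICB, at 0.28 in the main result, turned to -0.0408 with TPM as deposited. The 6 called transcripts became 0 with TPM as deposited, 22 at a mean of at least 5 TPM and 0 to 3 when 1 library was left out. Fits without 1 library hold fewer samples and the alternatives on transcripts and levels test other sets; the cause of the other moves was not tested. No paired analysis was possible because the controls' column name occurs in no label, so their numbers tie to no sample, and nothing marks a number as a shared batch. Depth limits HLA-F and NLRC5 most, whose summed mean estimated counts in the authors' deposited table were 549.5 and 1105, against 66386 for B2M.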

Other observations

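The reads behind the TPM of the 9 genes were spread unevenly over transcripts. Those under 100 mean estimated counts in the authors' deposited table held 56.7% of the TPM of TAP2, 88.7% of that of NLRC5 and 100% of that of HLA-F, but 0.326% of that of B2M. One TAP2 transcript, ENST00000374897.2, held 50.2% of the estimated counts of its gene in the authors' deposited table and 17.4% of its TPM. Its effect in the authors' deposited table was 0.293 in natural log units (SE 0.0564). With transcripts under 100 mean estimated counts left out, TAP2 had a log2 fold change of 0.66 and NLRC5 of 0.65, both called higher (limma, adjusted p = 2.78e-04 and 0.00708). In that fit 3686 of 12310 symbols were called higher, against 1499 of 21011 in the main fit. For NLRC5 it kept 2 transcripts, ENST00000262510.6 and ENST00000539881.1, and the TPM of each overlapped between the groups as deposited.

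Within TAPBP the transcripts differed. The most abundant, ENST00000383198.2, was at 32.2, 32.5 and 32.5 TPM with HA-TAZ and 35.9, 32.4 and 34.7 TPM in controls. ENST00000460153.1, which shares its values with a transcript on each of 2 other copies, was at 8.68, 7.20 and 8.44 TPM with HA-TAZ and 2.40, 2.59 and 5.49 TPM in controls, without overlap (limma, adjusted p = 0.0813). In the authors' deposited table its effect was 1.13 on the natural log scale with a q-value of 0.00656. In HLA-C, ENST00000468663.1 went the other way, with 16.1, 24.7 and 9.31 TPM with HA-TAZ and 62.3, 36.9 and 19.9 TPM in controls, overlapping between the groups (limma, adjusted p = 0.297).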
